A study of Mus musculus with 12 samples.

Results

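Insulin, insulin-like growth factor (IGF) and leptin receptor signalling was followed in mouse kidney by RNA sequencing through 10 genes: Lepr, Insr, Irs1, Irs2, Igf1, Igf1r, Igfbp1, Igfbp3, Igfbp4 and Foxo1. They were taken by gene symbol from a table of read counts for 57490 genes, and were chosen with earlier results of these data known. All 10 of the 10 passed the filter on low counts, which kept 17431 genes for testing.

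The study asked what db/db diabetes changes in the kidney and what treatment with Yiqi Huoxue Yangyin Decoction (YHY) changes in diabetic mice. Male mice aged 13 weeks formed 3 groups of 4, and each mouse gave its own library. Ctrl mice were BKS heterozygotes (db/+, also written db/m), and the Model and YHY mice were db/db mice of the strain BKS.Cg-Dock7m +/+ Leprdb/JNju, whose Lepr allele carries a splice mutation. YHY mice received a water extract of the herbal decoction (6.24 g/mL) by daily gavage for 4 weeks, with 50 µL for every 10 g that a mouse weighed, while Ctrl and Model mice were given purified water. The sources used here do not tell the dose group of the sequenced YHY mice. The sample labels call the tissue whole kidney and the series description calls it renal cortex. The libraries held 24415658 to 33276634 counts each.

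Mice within each group stood apart in the share of counts from mitochondrial genes. It was 18.6% in Ctrl 1, 22.7% in Ctrl 2, 18.4% in Ctrl 3 and 18.5% in Ctrl 4. In the Model mice it was 41.2%, 58.9%, 55.3% and 53.4%, and in the YHY mice 53.8%, 64.6%, 54.6% and 54.2%. Ctrl 2 and YHY 2 lay above the rest of their groups and Model 1 below, and every db/db mouse lay above every Ctrl mouse. Where leaving out 1 of these mice changes a call among the 10 genes, both values are given, and the part of this share in the results was not tested.

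Markers of kidney tissue were present in all 12 mice. The 9 proximal tubule markers, led by Slc34a1, summed to a mean of 6363 CPM (library-scaled read counts, by TMM, the trimmed mean of M-values) in Ctrl mice, 4823 in Model mice and 3513 in YHY mice. The 7 collecting duct markers, led by Aqp2, summed to means of 910.5, 497 and 397 CPM. Single mice ran from 620 to 1466 CPM in Ctrl, 405 to 633 CPM in Model and 267 to 631 CPM in YHY, so the groups overlapped. The 5 loop and distal tubule markers, with Slc12a1 the most abundant over the 12 mice but Umod in Ctrl mice, summed to 2084, 1578 and 1774 CPM. Aqp2 marks collecting ducts of both cortex and medulla, so these lists do not tell the tissue labels apart. Markers within a list did not all move alike. In Model against Ctrl the log2 fold change was 0.06 for Slc34a1, 1.13 for Slc22a8 and -1.68 for Lrp2. It was -2.86 for Umod and 1.33 for Slc12a3. At an adjusted P under 0.05, 1 of the 9 proximal tubule markers was higher and 3 lower. Of the loop and distal tubule markers 1 was higher and 1 lower, beside 38.0% of all genes passing. In bulk tissue, fewer cells of a type and less RNA per cell cannot be told apart.

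Insulin and IGF1 act through related receptor tyrosine kinases, Insr and Igf1r, which phosphorylate the adaptor proteins Irs1 and Irs2 and so activate phosphoinositide 3-kinase and Akt. Akt keeps FOXO transcription factors out of the nucleus, and IGF binding proteins carry IGFs in blood and tissue and limit their access to the receptor. The leptin receptor signals through Jak2 and Stat3 in its long form, and loss of that form makes db/db mice overeat, become obese and develop diabetes, while the kidney's tubules and glomeruli respond to insulin and IGF1 and its proximal tubule makes glucose.

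Among the 10 genes, the binding protein Igfbp3 and the transcription factor Foxo1 were higher in Model than in Ctrl kidneys, by 1.94-fold and 1.41-fold. Of 23 alternatives, 5 lost the Igfbp3 call and 12 the Foxo1 call, the latter including each fit that left out 1 Ctrl or Model mouse alone. The Foxo1 log2 fold change was 0.07 with library size alone. The binding protein Igfbp4 was lower in YHY than in Ctrl kidneys, with a log2 fold change of -1.30. Calls were made by edgeR's quasi-likelihood test at an adjusted P under 0.05, with Benjamini-Hochberg adjustment over all 17431 genes. The receptors, the substrates and Igf1 passed this threshold in none of the 3 comparisons, and 0 of the 10 genes passed it between YHY and Model mice.

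In Model against Ctrl, 2 of the 10 genes were called, both higher, beside 38.0% of all genes (19.6% higher and 18.5% lower). In YHY against Model, edgeR called 0 of 10 beside 13.3% of all genes (5.63% higher and 7.62% lower), with 2 of the 10 at an unadjusted P under 0.05, Igfbp3 and Igfbp4, and DESeq2 also called 0. In YHY against Ctrl, 1 of 10 was called, lower, beside 50.3% of all genes (26.1% higher and 24.2% lower). Counting genes past a 1.2-fold difference with P under 0.05 before adjustment gave 3, 2 and 3 members, beside 46.9%, 28.6% and 56.0% of all genes. The median log2 fold change of the 10 was 0.10, -0.32 and 0.10 in the 3 comparisons, and that of all genes tested 0.04, 0.02 and 0.10. The comparisons share mice, Model mice between the first pair, Ctrl mice between Model and YHY against Ctrl, and YHY mice between the last pair, so their values are given side by side and are not independent evidence.

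**Figure D1:**
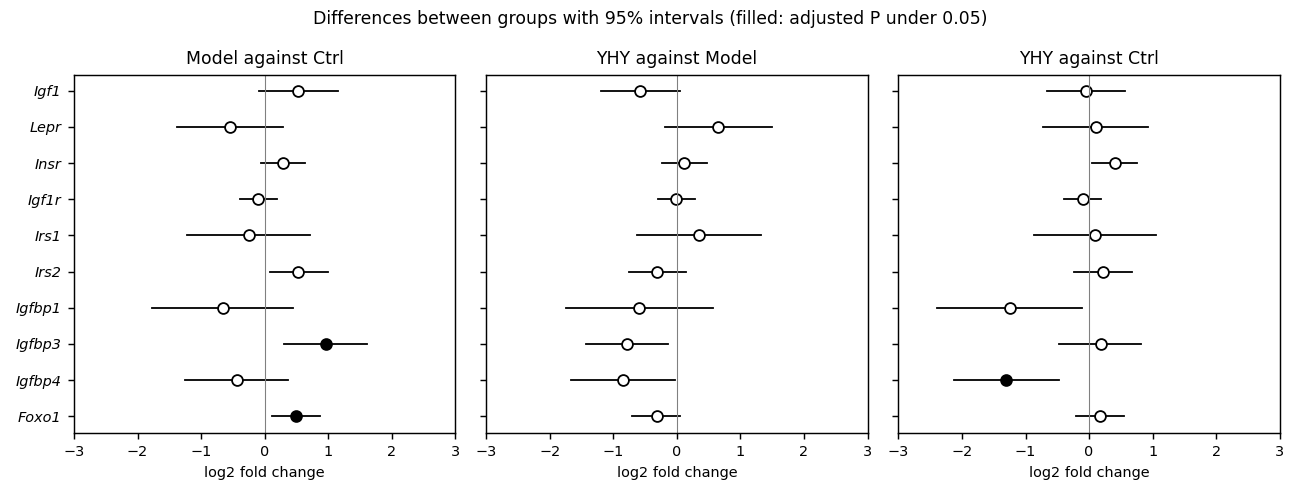
Log2 fold changes of the 10 genes with 95% intervals in the 3 comparisons, with 4 mice per group. Filled circles mark an adjusted P under 0.05: Igfbp3 (0.96) and Foxo1 (0.50) in Model against Ctrl, and Igfbp4 (-1.30) in YHY against Ctrl.

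The choice of scaling bears on all directions against Ctrl. With TMM the median gene moved by 0.04 in Model and 0.10 in YHY against Ctrl, and with library size alone by -0.39 and -0.33. Genes higher were 51.5% of those called in Model against Ctrl with TMM and 21.4% with library size alone, and 51.9% and 28.3% in YHY against Ctrl. Upper-quartile scaling placed the median gene at 0.14 and 0.22.

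Igf1, the growth factor ligand of Igf1r, was low in kidney. It measured 8.21, 5.80, 13.0 and 7.87 CPM in Ctrl 1 to 4, 11.3, 18.0, 8.99 and 12.1 CPM in Model 1 to 4, and 13.2, 7.24, 7.85 and 5.50 CPM in YHY 1 to 4. The groups overlapped, with Model 2 the highest mouse and YHY 4 the lowest. The 95% interval of the log2 difference was -0.09 to 1.15 in Model against Ctrl, -1.2 to 0.05 in YHY against Model and -0.67 to 0.57 in YHY against Ctrl, so none of the differences passed the test. Fits without a mouse gave Igf1 values from 0.31 to 0.74 in Model against Ctrl and from -0.88 to -0.36 in YHY against Model. The lowest value over all alternatives in Model against Ctrl was 0.07. Igf1os, a transcript antisense to Igf1 that shares bases with it, averaged 1.92 counts. The other ligands, Igf2 and the leptin gene Lep, fell below the filter: Igf2 had at most 2 counts in a mouse, and Lep had 16 counts in Model 2, 14 in Model 3, 2 in YHY 4 and 0 in the other 9 mice. Leptin is made by adipocytes, and of the 6 adipocyte markers 2 were tested, with Fabp4, which endothelium also expresses, the most abundant. Their summed level was 56.9, 41.8, 62.8 and 53.8 CPM in Ctrl mice, 57.8, 54.8, 48.6 and 60.0 CPM in Model mice and 67.0, 50.7, 89.4 and 54.8 CPM in YHY mice, almost all from Fabp4, and the defining markers Adipoq and Plin1 had at most 10 and 4 counts in a mouse. Adipoq had 10 counts in Model 2, 6 in Model 1, 0 in Model 3 and at most 2 in any other mouse. Plin1 had 2 counts in Model 2, 4 in YHY 4 and 0 elsewhere.

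Lepr, the leptin receptor and the mutated gene of the strain (ENSMUSG00000057722, chr4:101574601-101672549, plus strand, GRCm39), was read in every mouse. It measured 10.7, 4.83, 9.96 and 11.6 CPM in Ctrl mice, 8.27, 6.62, 2.78 and 7.78 CPM in Model mice and 16.6, 7.13, 11.9 and 4.34 CPM in YHY mice. Ctrl 2 lay below the other Ctrl mice and Model 3 below the other Model mice, and the YHY mice ran from below Ctrl 2 to above every other mouse. The log2 fold change was -0.54 in Model against Ctrl (95% interval -1.38 to 0.29, edgeR adjusted P = 0.292), 0.65 in YHY against Model (-0.19 to 1.49, adjusted P = 0.298) and 0.11 in YHY against Ctrl (-0.72 to 0.93). Counts per gene do not separate transcript forms, so they do not show the splice change of the db allele, and the total alone does not tell the genotypes apart. In a fit without Ctrl 2, Model 1 and YHY 4, of the 9 mice behind the deposited group means, Lepr was called lower in Model mice (-0.96, adjusted P = 0.0468). It was not called at the same value without Ctrl 2 and Model 1 (adjusted P = 0.107) or without Ctrl 2, Model 1 and YHY 2 (0.105), and the value was -0.76 without Ctrl 2, -0.75 without Model 1 and -0.30 without Model 3 (0.587). Over all alternatives the adjusted P ran from 0.0468 to 0.587. Against Ctrl, the sign in YHY mice turned without Ctrl 2 (-0.11) or YHY 1 (-0.26). The Lepr value in YHY against Model ran from 0.29 to 0.9 with a mouse left out. Leprot, which is transcribed upstream of Lepr in the same direction and affects receptor traffic, differed between groups by at most -0.30, with all intervals across 0 (-0.75 to 0.16 in YHY against Ctrl).

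Insr, the insulin receptor, ran from 44.7 to 55.7 CPM in Ctrl mice, from 48.8 to 66.7 CPM in Model mice and from 54.1 to 87.0 CPM in YHY mice, with YHY 4 at the top. Its log2 fold change in YHY against Ctrl was 0.40 (95% interval 0.05 to 0.76, edgeR adjusted P = 0.0531), which missed the threshold with all mice and passed it without Ctrl 2 (0.47, adjusted P = 0.0487), YHY 1 (0.48, 0.0349) or YHY 3 (0.48, 0.0348), with upper-quartile scaling (0.52, 0.0114), without mitochondrial genes (0.42, 0.0435) and with at least 10 counts in every mouse (0.46, 0.0239). Without YHY 4 it was 0.23 (adjusted P = 0.218), within a range of adjusted P from 0.0114 to 0.893 over the alternatives. With library size alone the value was -0.04. In Model against Ctrl the value was 0.29 (-0.06 to 0.64) with TMM, 0.19 without Model 1 and -0.14 with library size alone, and the interval was in YHY against Model -0.24 to 0.47, where the sign of the value turned without YHY 4 (-0.06).

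Igf1r, the IGF1 receptor, had the narrowest intervals of the 10 genes. It ran from 76.8 to 108 CPM in Ctrl mice, 77.8 to 93.4 CPM in Model mice and 81.8 to 98.9 CPM in YHY mice, and the groups overlapped. The intervals of the log2 difference were -0.39 to 0.20, -0.30 to 0.29 and -0.40 to 0.19 in Model against Ctrl, YHY against Model and YHY against Ctrl. Under library size alone Igf1r was called lower in both comparisons with Ctrl (-0.52, adjusted P = 0.0295, and -0.54, adjusted P = 0.0215), where the median gene moved by -0.39 and -0.33, and with upper-quartile scaling its values were 0.00 and 0.02. Its adjusted P ran from 0.0295 to 0.983 and from 0.0215 to 0.930 over the alternatives.

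Insrr, a further member of the insulin receptor family that responds to alkaline pH, was named among the pathway genes and rose in both steps. It measured 13.1, 19.2, 7.59 and 11.7 CPM in Ctrl mice, 22.4, 24.5, 25.9 and 28.1 CPM in Model mice and 38.4, 52.9, 41.7 and 41.5 CPM in YHY mice. Every Model mouse lay above every Ctrl mouse and every YHY mouse above every Model mouse. The log2 fold change was 0.97 ± 0.22 (SE) in Model against Ctrl (edgeR adjusted P = 0.00231) and 0.79 ± 0.21 in YHY against Model (adjusted P = 0.0242). The first held in all 23 alternatives. The second was lost without Model 1 (0.73, adjusted P = 0.0662), Model 2 (0.77, 0.0564), Model 3 (0.80, 0.0634) or YHY 2 (0.68, 0.0653) and without Ctrl 2, Model 1 and YHY 2 (0.64, 0.0514), and ran from 0.00448 to 0.0662 in adjusted P over the alternatives.

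The receptor substrates differed in level. Irs1 was scarce, with 17 to 96 counts and 0.624 to 2.18 CPM over the 12 mice, and its intervals were the widest after those of Igfbp1 (-1.22 to 0.71 in Model against Ctrl, -0.63 to 1.33 in YHY against Model and -0.86 to 1.05 in YHY against Ctrl). The value in Model against Ctrl was -0.25 with all mice, -0.50 without Ctrl 2, -0.51 without Model 4 and -0.03 without Ctrl 4. Without Ctrl 2 the sign in YHY against Ctrl turned (-0.15), as it did without YHY 2 (-0.05) or YHY 4 (-0.03).

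Irs2, the substrate that falls with insulin in liver, measured 8.85, 18.3, 10.5 and 9.17 CPM in Ctrl mice, 19.2, 17.3, 17.5 and 13.7 CPM in Model mice and 13.5, 16.0, 12.9 and 12.3 CPM in YHY mice. Ctrl 2 lay among the Model mice, and the other 3 Ctrl mice lay below every db/db mouse. The log2 fold change in Model against Ctrl was 0.53 (95% interval 0.08 to 0.99, edgeR adjusted P = 0.0595) with all mice, which missed the threshold, and 0.83 (adjusted P = 0.00198) without Ctrl 2. In fits chosen after seeing the data it was 0.70 (adjusted P = 0.00626) without Ctrl 2 and Model 1, and 0.71 (0.00412) without Ctrl 2, Model 1 and YHY 2. It was called in 7 of 23 alternatives, and the adjusted P ran from 0.00198 to 0.646, the highest with library size alone, where the value was 0.13. In YHY against Ctrl the value was 0.22 with all mice and 0.51 without Ctrl 2 (adjusted P = 0.0226, in a range of 0.0197 to 0.880), and -0.18 with library size alone. The interval in YHY against Model was -0.76 to 0.14. The lncRNA 9530052E02Rik, antisense to Irs2 over 609 bases, averaged 22.8 counts against 397 for Irs2, and since the use of strand in counting is not given, their reads cannot be told apart where they overlap.

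Among the 10 genes the IGF binding proteins held the largest fitted differences. Igfbp3, the main IGF carrier of blood (ENSMUSG00000020427, chr11:7156086-7163923, minus strand, GRCm39), measured 99.1, 186, 138 and 66.8 CPM in Ctrl mice and 208, 276, 308 and 161 CPM in Model mice. In YHY mice it measured 157, 195, 84.5 and 117 CPM. Model 1, 2 and 3 lay above every Ctrl and YHY mouse, while Model 4 lay below Ctrl 2 and YHY 2, so the groups overlapped. The log2 fold change was 0.96 ± 0.31 (SE) in Model against Ctrl, with an edgeR adjusted P of 0.0215. Between YHY and Model mice it was -0.78 (95% interval -1.43 to -0.14, adjusted P = 0.102; -0.80 and 0.0179 without a filter, in a range of 0.0179 to 0.258) and in YHY against Ctrl 0.18 (-0.47 to 0.82).

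The Igfbp3 call rested on several mice. It was lost without Ctrl 1 (0.81, edgeR adjusted P = 0.0795), Ctrl 4 (0.70, 0.0762), Model 2 (0.88, 0.0606) or Model 3 (0.81, 0.0735), and with library size alone (0.54, 0.108). The adjusted P ran from 0.00141 to 0.108 over 23 alternatives, the value stayed positive in each, and it was 1.23 without Ctrl 2 and Model 1. Against Ctrl, the sign in YHY mice turned without Ctrl 4 (-0.09) or YHY 2 (-0.04).

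Igfbp4, which binds IGFs and is freed of them by the protease Pappa (ENSMUSG00000017493, chr11:98932070-98945218, plus strand, GRCm39), measured 424, 615, 452 and 331 CPM in Ctrl mice and 526, 303, 328 and 182 CPM in Model mice. In YHY mice it measured 112, 190.3, 82.8 and 357 CPM. YHY 1, 2 and 3 lay below every Ctrl mouse and YHY 4 lay above Ctrl 4. Its log2 fold change in YHY against Ctrl was -1.30 ± 0.39 (SE, edgeR adjusted P = 0.0113), and it kept its call in all 23 alternatives, with values from -1.83 to -1.06. In Model against Ctrl it was -0.44 (95% interval -1.26 to 0.37), with -0.81 without Model 1, -0.27 without Ctrl 2 and -0.24 without Model 4. Between YHY and Model mice it was -0.85 (-1.67 to -0.03, adjusted P = 0.158) with all mice, -1.39 (adjusted P = 0.0136) without YHY 4 and -0.56 (0.395) without Model 1. It was also called without a filter (-0.87, 0.0310) and in the 9 mice behind the deposited group means (-1.07, 0.0278), within a range of adjusted P from 0.0136 to 0.451, and whether the genotype step and the treatment step differ was not tested.

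Proximal tubule markers are given beside Igfbp4. Their 9 genes summed to 6070 CPM in Ctrl 1, 8070 in Ctrl 2, 6228 in Ctrl 3 and 5085 in Ctrl 4, to 5531, 4896, 5204 and 3661 CPM in Model 1 to 4, and to 2077, 3978, 2548 and 5449 CPM in YHY 1 to 4. YHY 4 had the highest sum of its group and also the highest Igfbp4, and the same held for Ctrl 2 in Ctrl and Model 1 in Model. Of the 9 markers, 1 was higher and 5 lower in YHY against Ctrl, and 1 higher and 3 lower in Model against Ctrl, beside 50.3% and 38.0% of all genes called. Among them the lowest edgeR adjusted P in YHY against Model was 0.0546, that of Aqp1. The part of this in the Igfbp4 result was not tested.

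Igfbp1, the binding protein that FOXO factors induce in liver, was scarce and uneven. It measured 0.864, 4.40, 4.21 and 2.12 CPM in Ctrl mice, 2.22, 2.00, 1.28 and 1.79 CPM in Model mice and 0.610, 2.15, 0.446 and 1.70 CPM in YHY mice, from 12 to 172 counts. Ctrl 2 and Ctrl 3 lay highest and Ctrl 1 lay among the YHY mice. The interval of the log2 difference was -1.77 to 0.45 in Model against Ctrl, -1.74 to 0.56 in YHY against Model and -2.39 to -0.11 in YHY against Ctrl, where the value of -1.25 had an edgeR adjusted P of 0.0630. That value passed the threshold without Ctrl 1 (-1.63, adjusted P = 0.0137), Ctrl 4 (-1.45, 0.0478), YHY 2 (-1.65, 0.0274) or YHY 4 (-1.48, 0.0499), and with DESeq2 (-1.26, 0.0426), library size alone (-1.74, 0.00759) or no filter (-1.29, 0.0297). Its range over the alternatives was 0.00759 to 0.175. Igfbp1 and Igfbp3 are neighbours on chromosome 11, with 3539 bases between them and opposite strands, and their fitted differences in Model against Ctrl had opposite signs (-0.66 and 0.96). Leaving out a mouse gave Igfbp1 values from -1.01 to -0.39 in Model against Ctrl and from -0.99 to -0.31 in YHY against Model.

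Foxo1, the FOXO factor that insulin signalling keeps inactive (ENSMUSG00000044167, chr3:52175757-52260642, plus strand, GRCm39), measured 23.0, 23.8, 20.7 and 22.2 CPM in Ctrl mice and 30.5, 30.0, 32.9 and 32.98 CPM in Model mice. In YHY mice it measured 22.4, 35.1, 16.8 and 26.8 CPM. All 4 Model mice lay above all 4 Ctrl mice, and YHY mice lay on both sides, with YHY 2 the highest of the 12 and YHY 3 the lowest. The log2 fold change was 0.50 ± 0.18 (SE) in Model against Ctrl (edgeR adjusted P = 0.0377), beside 38.0% of all genes called. Between YHY and Model mice it was -0.32 (95% interval -0.70 to 0.05), with -0.52 (adjusted P = 0.0453) without YHY 2 and -0.17 (0.519) without YHY 3, in a range of adjusted P from 0.0453 to 0.519. In YHY against Ctrl it was 0.17 (-0.21 to 0.55), and -0.03 without YHY 2.

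The Foxo1 call in Model against Ctrl was narrow. Leaving out any of the 8 Ctrl and Model mice took the adjusted P above 0.05: 0.0872, 0.0545, 0.120 and 0.0922 without Ctrl 1, 2, 3 and 4 (log2 fold changes 0.46, 0.52, 0.41 and 0.44), and 0.0654, 0.0609, 0.0845 and 0.0835 without Model 1, 2, 3 and 4 (0.45, 0.52, 0.47 and 0.47). The value with library size alone was 0.07 (adjusted P = 0.787), and with 2 mice left out, Ctrl 2 and Model 1, 0.49 (0.0799). The adjusted P ran from 0.0031 to 0.787 over 23 alternatives, of which 12 lost the call and 0 turned the sign.

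**Figure D2:**
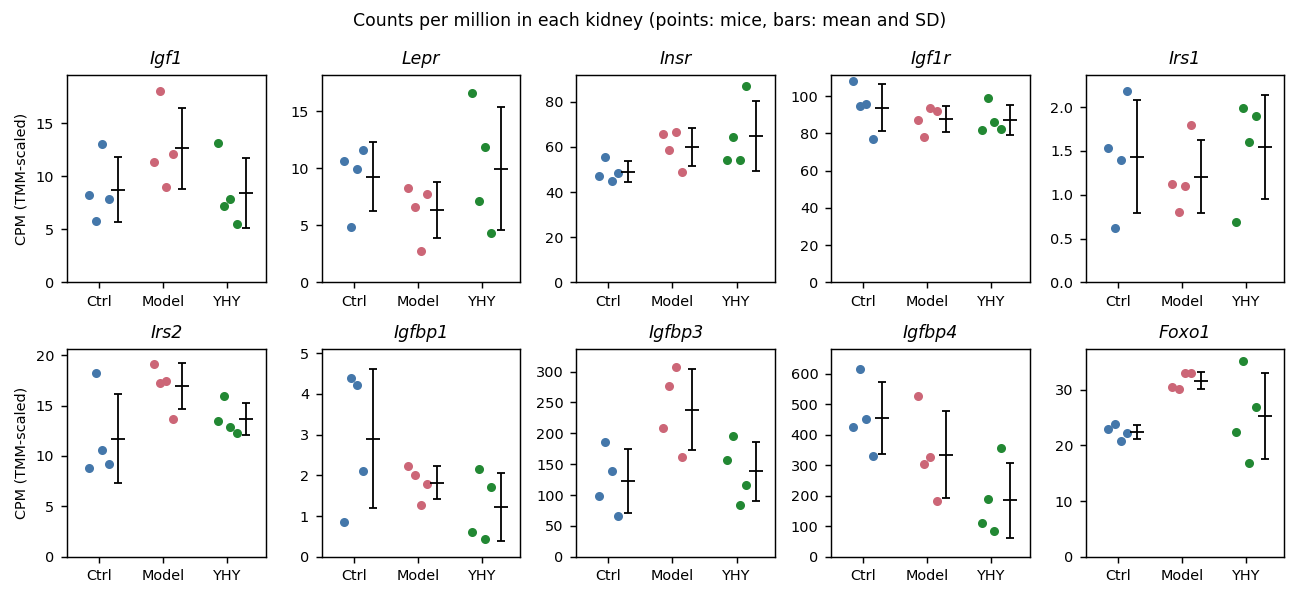
Level of the 10 genes in each of the 12 mice, in TMM-scaled CPM, each axis starting at 0. Points are mice and bars the mean and SD of 4 mice; the Model mice of Foxo1 (30.0 to 32.98 CPM) all lie above its Ctrl mice (20.7 to 23.8 CPM), while the other 9 genes overlap between Ctrl and Model.

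Promoters of members that moved together, or that hold the letters searched for, are shown to let their sequences be compared. RefSeq promoter sequences (GRCm38.p6, up to 250 bases before the gene's start, without annotated exon bases) were matched by symbol for 9 of the 10 genes. Letters linked with FOXO binding, GTAAACA or TGTTTAC on the other strand, and with insulin response elements, CAAAACA or TGTTTTG on the other strand, were searched for and are set in capitals. The first pair is in 3.17% and the second in 5.56% of all 32851 promoters in their 250 bases before the start. The FOXO letters were in none of the windows of Foxo1, Igf1r, Igfbp1, Igfbp3, Igfbp4, Irs1, Irs2 and Lepr. Windows of Igf1 and Insr are not described here. The insulin response letters were once in Igfbp1 at -108, at -111 and -32 in Irs1 and at -37 in Irs2, counted from the start, and not in the windows of Igfbp3 and Foxo1, the pair called higher in Model mice. A match describes letters only. The windows lie at chr11:7197537-7197781 (plus strand), chr1:82291440-82291689 (minus), chr8:11008930-11009179 (minus), chr11:7213924-7214173 (minus) and chr3:52268087-52268335 (plus).
Igfbp1: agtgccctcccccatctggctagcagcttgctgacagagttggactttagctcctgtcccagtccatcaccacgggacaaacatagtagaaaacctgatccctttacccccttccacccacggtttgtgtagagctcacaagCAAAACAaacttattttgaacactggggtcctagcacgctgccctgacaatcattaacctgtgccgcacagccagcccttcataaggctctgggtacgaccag
Irs1: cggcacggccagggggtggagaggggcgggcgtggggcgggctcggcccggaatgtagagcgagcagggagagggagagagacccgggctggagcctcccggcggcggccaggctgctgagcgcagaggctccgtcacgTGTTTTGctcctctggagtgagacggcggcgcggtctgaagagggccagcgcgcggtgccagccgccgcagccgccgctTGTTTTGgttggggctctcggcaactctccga
Irs2: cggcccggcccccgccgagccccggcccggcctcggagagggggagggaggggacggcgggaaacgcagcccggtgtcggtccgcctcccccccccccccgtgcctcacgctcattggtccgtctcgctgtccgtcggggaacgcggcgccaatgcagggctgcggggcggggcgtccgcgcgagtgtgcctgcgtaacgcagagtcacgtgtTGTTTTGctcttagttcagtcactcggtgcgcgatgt
Igfbp3: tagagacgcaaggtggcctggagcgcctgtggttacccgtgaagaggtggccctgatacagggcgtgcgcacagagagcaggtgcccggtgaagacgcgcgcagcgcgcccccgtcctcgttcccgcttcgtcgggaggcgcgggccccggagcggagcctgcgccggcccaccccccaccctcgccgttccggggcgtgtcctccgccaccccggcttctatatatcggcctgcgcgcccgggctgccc
Foxo1: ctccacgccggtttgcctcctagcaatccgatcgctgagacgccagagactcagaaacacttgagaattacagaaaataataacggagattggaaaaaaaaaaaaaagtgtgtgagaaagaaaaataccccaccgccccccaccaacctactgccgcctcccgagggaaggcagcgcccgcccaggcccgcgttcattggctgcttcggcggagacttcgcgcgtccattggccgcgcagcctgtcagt

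Levels between genes were compared per length, as TMM-scaled CPM per kilobase of the deposited gene length (FPKM). In Ctrl kidneys the order of mean level was Igfbp4 (103 ± 26.7 FPKM, SD, n = 4), Igfbp3 (39.2 ± 16.5), Igf1r (5.59 ± 0.762), Insr (3.57 ± 0.344), Foxo1 (2.59 ± 0.152), Igfbp1 (1.90 ± 1.12), Irs2 (1.85 ± 0.702), Lepr (1.32 ± 0.432), Igf1 (0.881 ± 0.308) and Irs1 (0.157 ± 0.0701). Foxo1 and Igfbp1, Igfbp1 and Irs2, and Irs2 and Lepr were neighbours that differed by less than the larger of their SDs. The abundant binding proteins thus stood above Igf1r and Insr, and these above Lepr, the ligand Igf1 and the substrates.

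In Model kidneys Igfbp3 (76.1 ± 21.1 FPKM) and Igfbp4 (75.8 ± 32.3) did not differ beyond their spread, nor did Igf1 (1.27 ± 0.389) and Igfbp1 (1.195 ± 0.264), or Igfbp1 and Lepr (0.902 ± 0.352). In YHY kidneys the same held for Igfbp3 (44.2 ± 15.4) and Igfbp4 (42.0 ± 27.8), for Igf1r (5.20 ± 0.473) and Insr (4.72 ± 1.12), and for each step from Foxo1 (2.92 ± 0.891) through Irs2 (2.16 ± 0.254), Lepr (1.42 ± 0.765) and Igf1 (0.852 ± 0.333) to Igfbp1 (0.806 ± 0.546). Irs1 was lowest in all 3 groups, at 0.132 ± 0.0456 in Model and 0.169 ± 0.0650 in YHY mice.

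**Figure D3:**
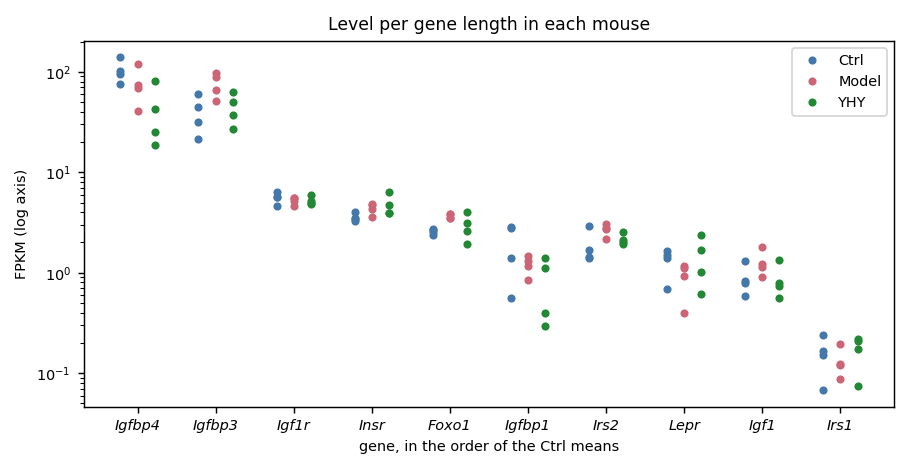
FPKM of the 10 genes in each mouse on a log axis, in the order of the Ctrl means, with points for the 4 mice of each group. Igfbp4 and Igfbp3 lie above the rest, from 103 and 39.2 FPKM in the Ctrl mean, and Irs1 below it, at 0.157 FPKM.

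For each gene, the genes nearest in pattern were found by the root mean square (RMS) difference of centred log2 CPM over the 12 mice, among genes with the same direction of Model minus Ctrl. The 2 nearest were picked from 6909 candidates for Lepr, Igf1r, Igfbp1 and Igfbp4, 6910 for Irs1 and 6027 for the other members. Small distances are therefore in part a product of the search. Igfbp4 lay 0.11 from Spink1 and 0.18 from Habp2, against its own SD of 0.89, and Igfbp3 0.18 from Dpep1 and 0.27 from Itga8, against 0.67. Foxo1 lay 0.12 from Ext1 and 0.13 from Ghdc (own SD 0.32), Insr 0.11 from Arvcf and 0.13 from Myl12b (0.27), Igf1r 0.11 from Rars and 0.12 from Tor1a (0.15), and Irs2 0.17 from Klhl36 and from Ppp3ca (0.38). Lepr lay 0.33 from Scin and from Runx1 (0.71), Igf1 0.29 from Cmtm7 and 0.30 from Calcrl (0.51), Irs1 0.32 from Phaf1 and 0.36 from Gm5113 (0.58), and Igfbp1 0.52 from Rgl1 and from Dgat2 (0.95).

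The wider pathway was described through 4 lists, of which 84 genes were tested. In Model against Ctrl 13 rose and 17 fell, in YHY against Model 6 rose and 6 fell, and in YHY against Ctrl 19 rose and 19 fell. Their median log2 fold changes were 0.02, -0.02 and -0.04, beside 0.04, 0.02 and 0.10 over all genes tested. The called shares of the 4 lists together were 35.7%, 14.3% and 45.2%, beside 38.0%, 13.3% and 50.3% of all genes.

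**Figure D4:**
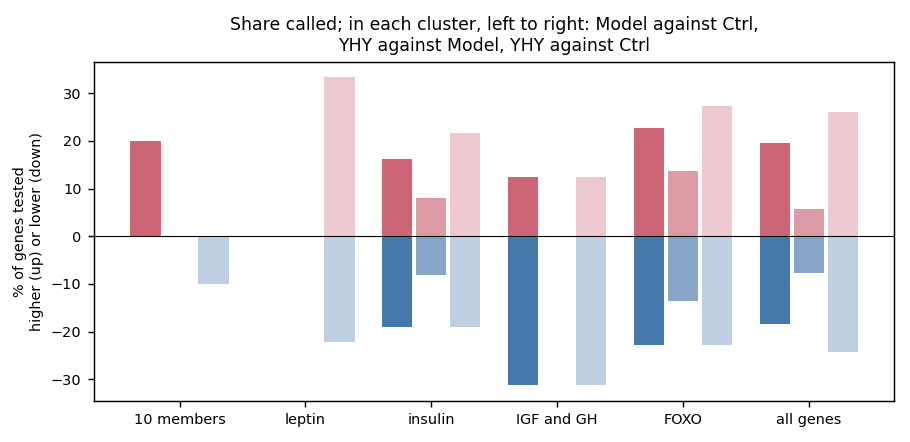
Percent of the genes tested that were called higher (red, above 0) or lower (blue, below 0) in the 10 genes, the 4 pathway lists and all genes, at an adjusted P under 0.05. In all genes 19.6% were higher and 18.5% lower in Model against Ctrl.

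Of 9 leptin pathway genes tested, edgeR called 0 in Model against Ctrl, with 4 at an unadjusted P under 0.05 and 2 called by DESeq2's test (1 higher and 1 lower), and 0 in YHY against Model, with 0 at an unadjusted P under 0.05 and 0 by DESeq2. In YHY against Ctrl 3 rose and 2 fell, and the medians were 0.02, 0.06 and -0.07. The 5 of 9 called there are 55.6%, beside 50.3% of all genes, and the counts of 0 stand beside 38.0% and 13.3%. Socs3, the feedback inhibitor that Stat3 induces, measured 2.69, 2.62, 2.01 and 3.66 CPM in Ctrl mice, 4.70, 4.71, 4.38 and 5.17 CPM in Model mice and 8.54, 10.3, 5.24 and 3.02 CPM in YHY mice. All Model mice lay above all Ctrl mice, and YHY 4 lay within the Ctrl range. Socs3 rose in YHY against Ctrl (1.30 ± 0.32 SE, edgeR adjusted P = 0.00345) and missed the threshold in Model against Ctrl (0.79, 95% interval 0.10 to 1.47, adjusted P = 0.0656). With library size alone its value in YHY against Ctrl was 0.83 (adjusted P = 0.0512, in a range of 0.000244 to 0.0512). Stat3 itself averaged 36.5, 39.3 and 49.4 CPM in Ctrl, Model and YHY mice. Its log2 fold change in YHY against Ctrl was 0.43 (adjusted P = 0.0308), and the call was lost in 11 alternatives of the same sign, among them those without Ctrl 1, Ctrl 2, Ctrl 3, Model 1, YHY 1 or YHY 2 (adjusted P = 0.0949, 0.108, 0.118, 0.0592, 0.0508 and 0.0945), in a range of 0.00743 to 0.936, with a value of -0.02 with library size alone.

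In the IGF and growth hormone list Ghr had the largest fall in Model against Ctrl. Ghr, the growth hormone receptor through which growth hormone raises Igf1, measured 799.5, 779.9, 841 and 737 CPM in Ctrl mice, 179, 186, 175 and 208 CPM in Model mice and 109, 190.4, 134 and 151 CPM in YHY mice. Every db/db mouse lay below every Ctrl mouse. Its log2 fold change was -2.08 ± 0.18 (SE) in Model against Ctrl (edgeR adjusted P = 1.59e-06) and -2.43 ± 0.18 in YHY against Ctrl (1.13e-07), and both held in all 23 alternatives (-2.51 to -1.97 and -2.90 to -2.32). The interval in YHY against Model was -0.72 to 0.01.

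Of the 16 genes tested in this list, 2 rose and 5 fell in Model against Ctrl (median -0.36) and again 2 and 5 in YHY against Ctrl (median -0.20). In YHY against Model edgeR called 0 (median -0.07), with 1 at an unadjusted P under 0.05 and 0 by DESeq2. The 7 of 16 called in each comparison with Ctrl are 43.8%, beside 38.0% and 50.3% of all genes, and the count of 0 stands beside 13.3%. Socs2, a growth hormone feedback inhibitor, rose in Model against Ctrl (1.12 ± 0.28 SE, edgeR adjusted P = 0.00562), from 5.60 to 13.7 CPM in Ctrl mice to 16.2 to 22.1 CPM in Model mice. Stat5a, a transducer of the growth hormone signal, rose by a log2 fold change of 0.68 (0.23 with library size alone). Igf2r, which clears IGF2 and sorts lysosomal enzymes, fell by 0.98 on the log2 scale, from 63.5 to 81.5 CPM in Ctrl mice to 27.04 to 47.5 CPM in Model mice. The protease Htra1, which can cleave IGF binding proteins, fell by 1.83. Apart from Stat5a with library size alone (adjusted P = 0.419, in a range of 0.00349 to 0.419), these calls held in all 23 alternatives.

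**Figure D5:**
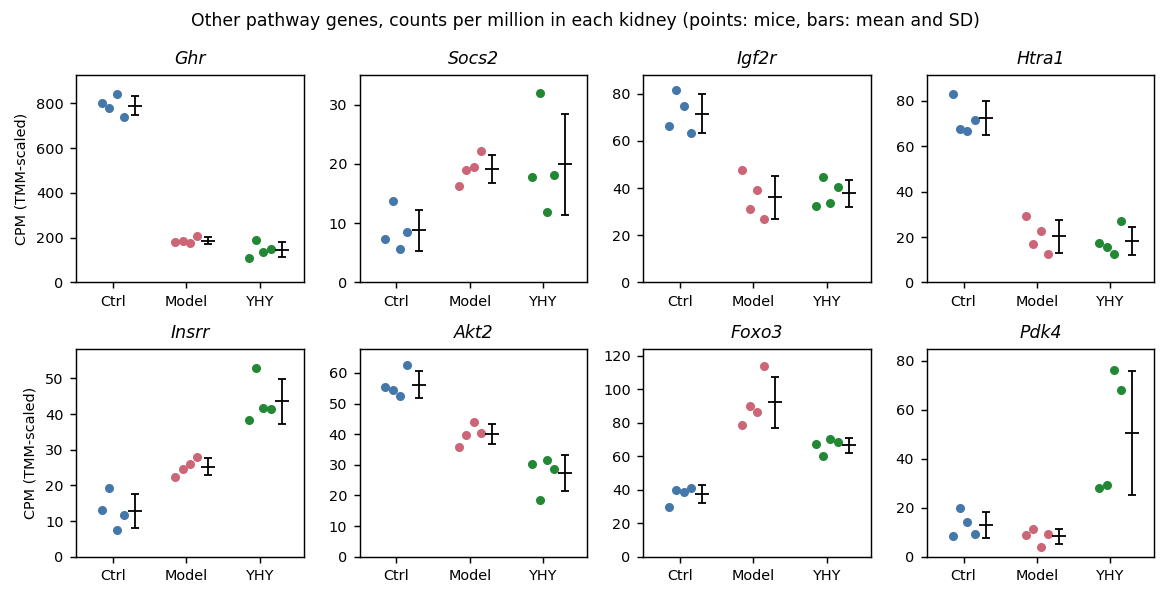
Level of 8 further pathway genes in each of the 12 mice, in TMM-scaled CPM, each axis starting at 0. Points are mice and bars the mean and SD of 4 mice; Ghr lies at 737 to 841 CPM in Ctrl and at 109 to 208 CPM in db/db mice, and Insrr rises from group to group without overlap.

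The insulin list held 37 tested genes, the related receptor Insrr and genes of signalling from Insr. In Model against Ctrl 6 rose and 7 fell (median 0.10), in YHY against Model 3 rose and 3 fell (0.03), and in YHY against Ctrl 8 rose and 7 fell (-0.02). The called shares were 35.1%, 16.2% and 40.5%, beside 38.0%, 13.3% and 50.3% of all genes. Pik3ca, a catalytic subunit of phosphoinositide 3-kinase, rose in Model against Ctrl by a log2 fold change of 0.63, from 47.3 to 68.9 CPM in Ctrl mice to 80.7 to 99.1 CPM in Model mice, although its value was 0.20 with library size alone (edgeR adjusted P = 0.324, in a range of 0.000897 to 0.324). The guanine nucleotide exchange factor Sos2, which activates Ras, fell by 0.69 in Model against Ctrl and was called in all 23 alternatives (-1.12 to -0.59). It rose by 0.57 in YHY against Model (edgeR adjusted P = 0.0416), and 14 of 23 alternatives lost that call, among them the fits without Ctrl 1, 3 or 4 (0.56 in each, adjusted P = 0.0537, 0.0618 and 0.0528), Model 1, 2, 3 or 4 (0.60, 0.52, 0.57 and 0.59, adjusted P = 0.0583, 0.102, 0.103 and 0.0749) and YHY 1 or 2 (0.61 and 0.36, adjusted P = 0.0538 and 0.121), in a range of 0.0237 to 0.121. Akt1 and Pik3r1 passed the threshold in none of the comparisons, with intervals of -0.25 to 0.50 and -0.31 to 0.42 in Model against Ctrl.

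In YHY against Model, the Ras and MAP kinase genes Hras and Map2k2 fell. Hras measured 60.8, 54.0, 68.3 and 67.9 CPM in Model mice and 32.8, 31.6, 34.0 and 33.7 CPM in YHY mice, with 57.1 to 67.2 CPM in Ctrl mice. The YHY mice lay below all other mice. Its log2 fold change was -0.93 ± 0.12 (SE, edgeR adjusted P = 0.000479), that of Map2k2 was -0.96 ± 0.14 (adjusted P = 0.000884), and both held in all 23 alternatives. In Model against Ctrl, Map2k2 was called higher (0.37, edgeR adjusted P = 0.0476). Of 23 alternatives, 11 lost that call and 1 turned its sign. Akt2, the Akt form tied to insulin's control of glucose, averaged 56.2, 39.9 and 27.2 CPM in Ctrl, Model and YHY mice without overlap, and fell by 0.49 in Model against Ctrl (adjusted P = 0.0211) and by 0.55 in YHY against Model (0.0315). The first of these was lost without Model 2 (-0.49, adjusted P = 0.0502), with upper-quartile scaling (-0.39, 0.0668) and without Ctrl 2 and Model 1 (-0.52, 0.0509). The second was lost in 11 of 23 alternatives, among them library size alone (-0.50, 0.195) and the fits without Ctrl 1 (-0.55, 0.0516), Ctrl 3 (-0.55, 0.0506), Model 2 (-0.55, 0.0594), Model 3 (-0.50, 0.0991), Model 4 (-0.55, 0.0627) or YHY 2 (-0.41, 0.0574). Their adjusted P ran from 0.00268 to 0.0668 and from 0.0124 to 0.195 over the alternatives.

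Among 22 FOXO factors and targets tested, 5 rose and 5 fell in Model against Ctrl (median -0.19), 3 rose and 3 fell in YHY against Model (-0.14), and 6 rose and 5 fell in YHY against Ctrl (-0.02). The called shares were 45.5%, 27.3% and 50.0%, beside 38.0%, 13.3% and 50.3% of all genes, and whether the list differs from other genes was not tested. Foxo3, a close relative of Foxo1, measured 29.9, 39.9, 38.8 and 41.1 CPM in Ctrl mice, 78.6, 90.1, 86.3 and 114 CPM in Model mice and 67.4, 60.0, 70.6 and 68.2 CPM in YHY mice. The 3 groups did not overlap. Foxo3 rose by 1.30 ± 0.15 (SE) in Model against Ctrl on the log2 scale (edgeR adjusted P = 1.70e-05), in all 23 alternatives. Its fall by 0.47 in YHY against Model (adjusted P = 0.0477) was lost in 19 of 23 alternatives, among them each mouse left out except Ctrl 1 and Model 1, with adjusted P from 0.0558 without Ctrl 4 to 0.144 without Model 4 (-0.35), in a range of 0.0239 to 0.193. Foxo4 fell in YHY against Model by 0.50 (adjusted P = 0.0150), and was not called with library size alone (-0.49, 0.117) or in a fit of only the 8 mice compared (-0.45, 0.0647), in a range of 0.00168 to 0.117.

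Single FOXO targets rose and fell. Angptl4, a lipase inhibitor that fasting induces, measured 19.6, 52.6, 35.1 and 14.2 CPM in Ctrl mice and 74.3, 85.5, 87.3 and 80.9 CPM in Model mice, a log2 fold change of 1.43 ± 0.30 (SE, edgeR adjusted P = 0.00171) that held in all 23 alternatives. In YHY mice it measured 116, 163, 149 and 201 CPM. Its log2 fold change was 0.94 in YHY against Model (edgeR adjusted P = 0.0496), a call lost in 11 of 23 alternatives. In YHY against Ctrl it was 2.37, called in all 23. Cat, the catalase gene, fell by 1.15 in Model against Ctrl and Gabarapl1, an autophagy gene, by 0.68, both in all 23 alternatives. Pdk4, the kinase that shuts off pyruvate oxidation, measured 9.07, 11.2, 4.11 and 9.31 CPM in Model mice and 28.0, 29.2, 76.1 and 68.0 CPM in YHY mice. YHY 3 and YHY 4 stood above YHY 1 and YHY 2, and all 4 stood above every Model and Ctrl mouse. Its log2 fold change in YHY against Model was 2.58 ± 0.38 (adjusted P = 0.000884) and held in all 23 alternatives.

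Pck1, the gluconeogenic enzyme of the proximal tubule and a FOXO target in liver, measured 1365, 2269.6, 1559 and 1195 CPM in Ctrl mice, 3958, 2919.5, 3265 and 1959 CPM in Model mice and 1198, 1869, 1203 and 2422 CPM in YHY mice. Model 4 lay below Ctrl 2, so the groups overlapped. Pck1 rose in Model against Ctrl (0.92 ± 0.28 SE, edgeR adjusted P = 0.0174), a call lost without Ctrl 1 (0.80, 0.0648), Ctrl 3 (0.86, 0.0518), Ctrl 4 (0.76, 0.0640) or Model 1 (0.70, 0.0584) and with library size alone (0.53, 0.116), in a range of 0.00322 to 0.116. Its value in YHY against Model was -0.85 (95% interval -1.45 to -0.26, adjusted P = 0.0565), which missed the threshold with edgeR and passed it with DESeq2.

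Markers of other cells stood as follows, and their part in the results was not tested. The 5 podocyte markers, led by Podxl, summed to means of 129, 154 and 107 CPM in Ctrl, Model and YHY mice. Model 1 summed to 249 CPM and the other Model mice to 126, 142 and 100 CPM, beside 107 to 147 CPM in Ctrl mice. The 7 endothelial markers, led by Plvap, summed to means of 305, 339.6 and 333 CPM. The 7 mesangial and fibroblast markers, with Ren1 the most abundant over the 12 mice but Pdgfra in YHY mice, summed to 283, 289 and 297 CPM. The 6 immune markers, of which 5 were tested, led by Csf1r, summed to 72.4, 72.9 and 74.2 CPM. The 6 hepatocyte markers summed to 1537, 517 and 381 CPM, with Cyp2e1, which proximal tubule also expresses, the most abundant over the 12 mice but Serpina1a in YHY mice, while Alb averaged 6.29, 12.0 and 6.69 CPM. In Model against Ctrl 2 podocyte, 2 endothelial, 3 mesangial and fibroblast and 1 immune markers rose and 3 collecting duct markers fell, while 1 loop and distal tubule marker rose and 1 fell and 2 hepatocyte markers rose and 1 fell, beside 38.0% of all genes called. In YHY against Model 1 loop and distal tubule marker and 1 collecting duct marker fell, beside 13.3% of all genes. In YHY against Ctrl, beside 50.3% of all genes, 3 podocyte markers rose and 1 fell, 3 mesangial and fibroblast markers rose and 1 fell, 1 loop and distal tubule marker rose and 2 fell, 2 hepatocyte markers rose and 1 fell, 2 endothelial and 1 immune markers rose and 3 collecting duct markers fell.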

How the data were processed

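Kidney RNA of 12 mice, 4 per group by the sample labels, was sequenced, and gene counts were deposited by the authors as a table of whole numbers for 57490 genes. The submitters' processing notes name FastQC 0.11.9, Trimmomatic 0.39, HISAT2 2.2.1, SAMtools 1.12, featureCounts 2.0.1, DESeq2 1.34.0, R 4.1.2 and the build GRCm39; whether strand was used in counting is not given in the sources used here. The deposited comparison tables hold fold changes, P values, group means and 12 columns of values for single mice. These cover 9 mice, with Model 2, 3 and 4 in both tables, and in the table of YHY against Model 3 columns carry the names of other mice. The KEGG tables hold enrichment results. No value of these tables was used, and the comparison tables served only to choose the mice of 1 alternative.

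Counts were fitted in R 4.3.3 with edgeR 4.0.16 (TMM, filterByExpr, quasi-likelihood test, all 12 mice in 1 fit, two-sided, Benjamini-Hochberg over 17431 genes, limma 3.58.1 loaded, tables read by the data.table package, 1.17.8). A call is an adjusted P under 0.05. The standard error is the size of the fit's coefficient, on the log2 scale and before edgeR shrinks it towards 0, over the square root of F. The 95% interval is centred on that coefficient and uses the t distribution with the fit's degrees of freedom. The log2 fold changes given are those edgeR reports after shrinking, so an interval need not be centred on its value. Log2 CPM for patterns used a prior count of 2. The scripts were tested on simulated data. Intervals cover the spread between mice, and no replicate pair agreed within sampling noise (chi-square per degree of freedom 17.3 to 138.9).

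The members and lists were chosen with earlier results of these data known. Lists were leptin, insulin, IGF and growth hormone pathway genes, FOXO factors and targets, and markers of proximal tubule, loop and distal tubule, collecting duct, podocyte, endothelium, mesangium and fibroblasts, immune cells, adipocytes and hepatocytes. Named were the members, 13 fixed pathway genes, up to 3 with the largest rise and 3 with the largest fall per list at a mean count of at least 50, each member's 2 nearest patterns, and each marker list's most abundant gene; other genes named were chosen after their values were seen. Alternatives were DESeq2 1.42.0, scaling by library size alone or upper quartile, no mitochondrial genes, no filter or at least 10 counts in every mouse, only the 8 mice compared, the 9 mice behind the deposited group means (without Ctrl 2, Model 1 and YHY 4), a replicate block, each mouse left out, and 2 chosen after seeing the data: without Ctrl 2 and Model 1, and without Ctrl 2, Model 1 and YHY 2. The comparison of YHY with Ctrl goes beyond those the series planned.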

Additional observations from a re-analysis of the deposited data

Results flagged for a closer look

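In 153 groups of 4 mice, the highest or lowest mouse was compared with the nearest other by Dixon's ratio, which chance passes in about 1 in 20 groups. The 8 found among 153 are about as many as that rate gives. Far from the rest of their groups lay Tbc1d4 in YHY 4 (16.3 CPM), Grb10 in Model 4 (4.27 CPM), Gabarapl1 in Model 1 (337 CPM), and Sesn1 and Akt1 in Ctrl 4 (11.7 and 78.5 CPM). The mitochondrial share lay apart in Ctrl 2 (22.7%) and YHY 2 (64.6%), and the summed loop and distal tubule markers in YHY 3 (2303 CPM).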

How the results depend on the processing

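Of the members' called differences, Igfbp4 in YHY against Ctrl kept its call in 23 of 23 alternatives, Igfbp3 in 18 and Foxo1 in 11. The cause of the changes below was not tested. Members called in Model against Ctrl were 1 with library size alone (Igf1r, neither of the 2 called with all mice and TMM), 1 with no filter, 3 with upper quartile, at least 10 counts, the 9 mice, without Ctrl 2, Model 1 and YHY 2 and by the fold rule, and 0 to 2 with a mouse left out; in YHY against Model 2 with no filter, 1 in the 9 mice, 2 by the fold rule and 0 to 1 with a mouse left out; in YHY against Ctrl 3 with library size alone, 3 by the fold rule, 2 with DESeq2, upper quartile, no mitochondrial genes, no filter, at least 10 counts, the 9 mice or without Ctrl 2 and Model 1, and 1 to 3 with a mouse left out. Pathway genes called in YHY against Model were 7 with library size alone, 26 by the fold rule, and, in the alternatives chosen after seeing the data, 7 without Ctrl 2 and Model 1 and 6 without YHY 2 as well; with a mouse left out they ran from 5 to 14. All genes called there were 1178 with library size alone, 1385 in the 8 mice, 4988 by the fold rule, 1493 and 1497 in the added alternatives, and 1146 to 2721 with a mouse left out. Signs turned with library size alone in Model against Ctrl for Insr (-0.14) and Map2k2 (-0.05), and in YHY against Ctrl for Lepr (-0.28), Insr (-0.04), Irs1 (-0.41), Irs2 (-0.18), Igfbp3 (-0.25), Foxo1 (-0.30), Pik3ca (-0.04) and Stat3 (-0.02). With upper quartile, Igf1r was 0.00, 0.01 and 0.02 in the 3 comparisons and Igf1 0.08 in YHY against Ctrl. Between YHY and Model mice, Igf1r was 0.01 with no mitochondrial genes and with at least 10 counts, 0.04 in the 8 mice and 0.03 in the 9 mice, where Insr was 0.00. In YHY against Ctrl, Igf1 was 0.01 with at least 10 counts and Irs1 -0.32 in the 9 mice; without Ctrl 2 and Model 1 Lepr was -0.15 and Irs1 -0.21, and without YHY 2 as well Lepr was 0.00, Irs1 -0.34 and Foxo1 -0.04. With a mouse left out, YHY against Model ran from -0.06 to 0.19 for Insr and -0.07 to 0.02 for Igf1r, and YHY against Ctrl from -0.26 to 0.35 for Lepr, -0.15 to 0.34 for Irs1, -0.35 to 0.16 for Igf1, -0.09 to 0.44 for Igfbp3 and -0.03 to 0.32 for Foxo1. Levels by library size alone were 59.9 CPM for Insr in Ctrl, 115, 79.96 and 79.0 for Igf1r, and 27.5 and 28.8 for Foxo1 in Ctrl and Model. With the replicate number as a block, members called were 3, 0 and 1, pathway genes 29, 10 and 40, and all genes 6289, 1920 and 8424; the numbers do not pair the mice, since same-numbered mice correlated at -0.17 to 0.12. Irs1 and Igfbp1 had the fewest counts of the 10 genes, at 17 and 12 in their lowest mouse. The part of depth in their wide intervals was not tested.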
